A study of Homo sapiens with 10 samples.

Results

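The untreated state of KYSE-410, a long-established line of human esophageal squamous carcinoma cells, was compared between 5 control libraries, out of 10 libraries sequenced. All 5 came from cells that received only the solvent DMSO (0.1%) and were collected after 48 h. 3 of them served as controls for K149 (2 µM) and are called the K149 arm here. The other 2 served as controls for AS1949490 (20 µM) and are called the AS1949490 arm. Both compounds inhibit SHIP2, and no library of inhibitor-treated cells was used. The members were the 17263 genes, of 58302 gene IDs in the table, with a mean of at least 1 CPM (the reads of a gene relative to all reads counted in that library) in either group of control libraries. Line, solvent dose and time were the same in both groups by their labels. The labels give no passage number, culture date or density, and each group is 1 library series, so a series and anything else that separates the arms cannot be told apart. Whether libraries within an arm stem from separate cultures is not stated in the labels.

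Several of the gene programs compared below are known to vary with the state of a culture. Growth factor ligands of the EGF family activate the ERK kinase cascade, which induces immediate early genes such as the AP-1 factors of the FOS and JUN families, and these in turn act on cytokine and protease genes. YAP, a coactivator that binds DNA through TEAD factors, is known to respond to cell density and stretch. In stratified epithelium of the esophagus, basal cells attach to a laminin matrix, and the cells above them switch on keratins 4 and 13.

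Each difference below is the K149 arm minus the AS1949490 arm in log2(CPM + 1), which understates the difference of low genes, with its standard error (SE) and adjusted p from limma. A gene with adjusted p under 0.05 is called higher or lower in the K149 arm. CPM values are given library by library, in the order of replicates 1 to 3 of the K149 arm and replicates 1 and 2 of the AS1949490 arm. A single value per arm is a mean over those 3 or 2 libraries, and ± marks the SE of a difference.

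Of the 17263 genes, 11540 (66.8%) were called, 6448 (37.4%) of them higher and 5092 (29.5%) lower in the K149 arm. At least 2-fold differences were called for 1953 genes (11.3%), with 1189 (6.89%) higher and 764 (4.43%) lower. The values of the groups did not overlap for 13374 genes (77.5%). For 7008 genes (40.6%) the 95% interval of the difference lay within 0.5 on the log2 scale in both directions. A share of members called in a list is read against these figures, since most genes were called. On the first principal component, which carried 92.9% of the variance, the K149 arm lay between -37.5 and -37.0 and the AS1949490 arm at 58.1 and 53.6. Depth, inferred from which CPM steps were empty or doubly filled, was 21.5, 22 and 20.8 M reads in the K149 arm and 18.4 and 20.8 M in the AS1949490 arm. The depth of replicate 1 of the AS1949490 arm is the least certain, since no gene lay on its lowest CPM step. The 2 libraries of the AS1949490 arm also differed more from each other (chi-square per degree of freedom 9.34) than those of the K149 arm (1.47 to 2.77), against 94.9 to 101 between the arms.

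**Figure D1:**
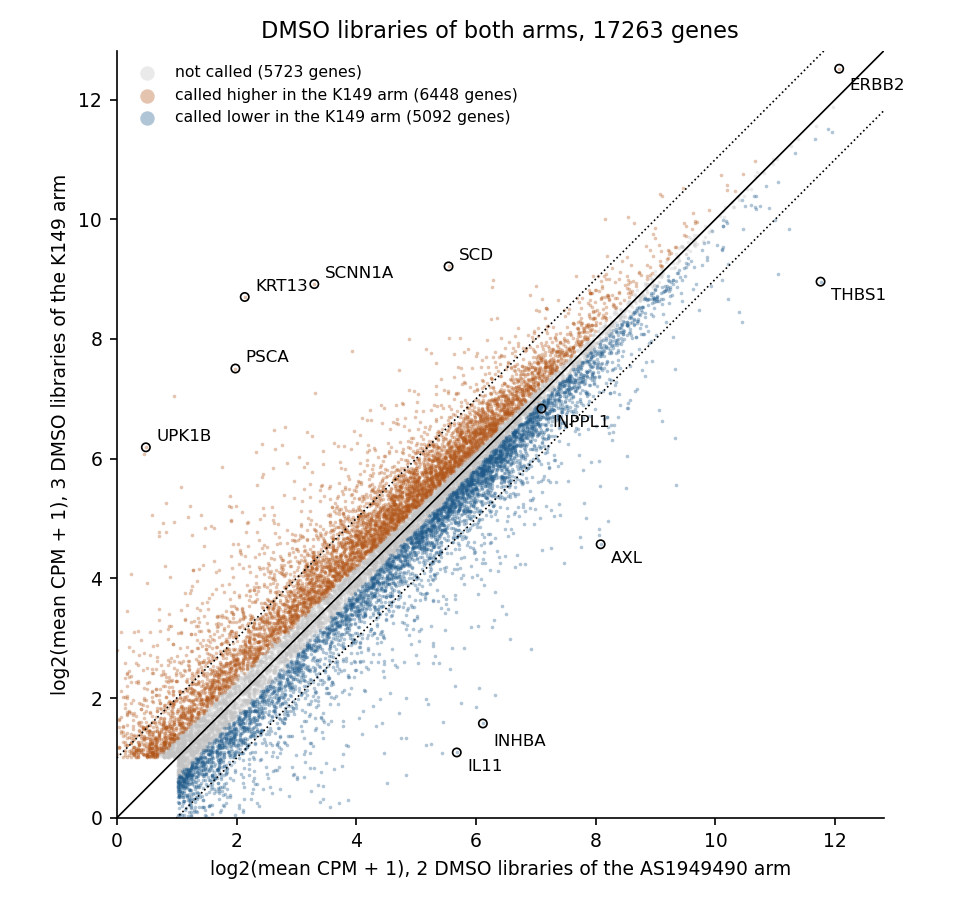
Mean level of each gene, as log2(mean CPM + 1), in the controls of the AS1949490 arm (x axis) and of the K149 arm (y axis), for 17263 genes coloured by call. The solid line marks equal levels and the dotted lines 2-fold differences, and the ringed genes are named in the text.

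The differences moved with the base composition of the genes. Across deciles of genes ordered by the GC content of their exons, the median difference went from 0.38 in the decile poorest in GC to -0.22 in the richest. Over 17206 genes Spearman's rho between difference and GC content was -0.32, as a description across genes that share their libraries. Mean GC content weighted by CPM was 49.0%, 49.1% and 49.0% in the K149 arm and 50.2% and 49.8% in the AS1949490 arm (exact two-sided permutation p = 0.2). That is the smallest p this test gives for 3 against 2 libraries, since it doubles the smaller tail. The part of GC in any single difference was not tested, so a value with the GC trend of each library removed is given beside the lists and genes where it matters. With that trend removed, the median of all genes was -0.01 in place of 0.06, and 5441 genes were called higher and 5597 lower. In bulk RNA, fewer cells of a kind and less RNA per cell cannot be told apart, which holds for every result below.

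**Figure D2:**
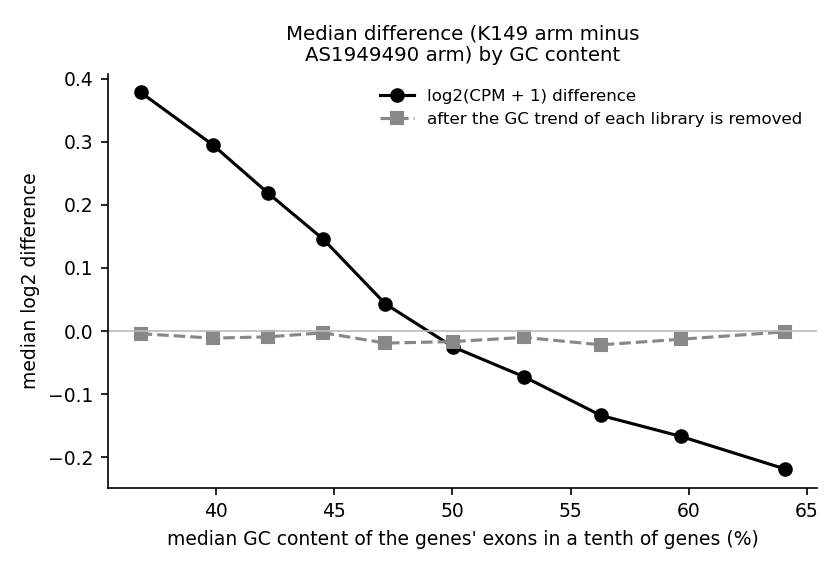
Median difference between the arms (y axis, log2 scale) in each decile of genes by exon GC content (x axis, %), as measured and with the GC trend of each library removed. The measured medians decline from 0.38 to -0.22, and those with the trend removed lie close to 0.

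The label of squamous carcinoma was checked against 8 markers. TP63, the master factor of squamous epithelium, had 126, 117 and 115 CPM in the K149 arm and 66 and 95.5 CPM in the AS1949490 arm, and TRIM29, a basal epithelial gene, had 205, 209 and 215 against 91.2 and 78.1 CPM. KRT17, a keratin of basal and stressed epithelium, had 81.4, 87.3 and 85 against 222 and 196 CPM. The basal keratin pair was low, with KRT5 at 8.91 and 7.02 CPM and KRT14 at 0.8 and 1.12 CPM. SOX2, a squamous lineage factor, had 1.23 and 0.25 CPM, KRT6A 1.57 and 6.4 CPM and DSG3, a desmosomal cadherin, 3.21 and 7.39 CPM. So 3 of the 8 markers were well above the threshold and 5 were low, and the simple epithelial keratins stood above KRT5 per length of transcript, with KRT8 at 221 and 170.03, KRT18 at 283 and 243, KRT19 at 394 and 217 and KRT7 at 425 and 438 CPM per kb against 2.08 and 1.64 CPM per kb. Columnar intestinal markers CDX2, KRT20, TFF3, HNF4A and MUC2 were below the threshold in both arms, and VIL1, which shares 44.0% of its exon bases with another gene and is uncertain, had 15.6 and 9.59 CPM. Other genes of the columnar list were expressed, and of its 21 genes 11 passed the threshold, 7 of them called higher and 2 lower in the K149 arm. Summed columnar markers ran from 5016 to 5267 CPM in the K149 arm and from 4191 to 4439 CPM in the AS1949490 arm. Markers of other cells were mostly below the threshold, with 7 of 10 fibroblast, 8 of 10 endothelial, 12 of 14 immune and 7 of 9 melanocyte and neural genes under it. Summed fibroblast markers ran from 231 to 243 CPM in the K149 arm and were 39.8 and 44.6 CPM in the AS1949490 arm. Most of that sum was LUM (lumican, a matrix proteoglycan), at 222 against 14.2 CPM, while PDGFRA was at 0.083 and 0.1 CPM. Of the 3 fibroblast genes tested 2 were called higher and 1 lower in the K149 arm. The lower 1 was the collagen gene COL1A1, at 10.6 against 25.4 CPM (-1.18 ± 0.10). Summed endothelial markers ran from 15 to 16.2 CPM in the K149 arm and from 3.7 to 4.3 CPM in the AS1949490 arm, and immune markers from 21.8 to 22 CPM and 13.9 to 14.9 CPM. The part of other cells in any difference was not tested.

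INPPL1, which encodes SHIP2, had 119.5, 118 and 102 CPM in the K149 arm and 141 and 130.03 CPM in the AS1949490 arm. The groups did not overlap, and the gene was called lower in the K149 arm by a small margin (-0.26 ± 0.08, adjusted p = 0.0133). With the GC trend removed the difference was -0.08 (adjusted p = 0.319) and no longer a call. The call was also lost without replicate 3 of the K149 arm (-0.19, adjusted p = 0.0518).

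The 15 genes with the largest differences in favour of the K149 arm were led by KRT13. KRT13, a keratin of the upper layers of esophageal epithelium, had 416, 411 and 418 CPM in the K149 arm and 3.0 and 3.8 CPM in the AS1949490 arm. That difference of 6.57 ± 0.08 (adjusted p = 1.73e-11), or 95-fold on the CPM + 1 scale, was the largest of all genes tested. UPK1B, a tetraspanin of the urothelial surface plaque, had 69.8, 69.1 and 77.1 against 0.4 and 0.4 CPM (5.70 ± 0.09). SCNN1A, the alpha subunit of the epithelial sodium channel, had 483, 479 and 485 against 8.34 and 9.35 CPM (5.62 ± 0.06). Both genes were low in the AS1949490 arm and high in every library of the K149 arm. Absence of overlap was a condition for a gene to be among these 15. CES1, a carboxylesterase, had 69.8, 57.7 and 72.8 against 0.2 and 0.55 CPM (5.63 ± 0.13), and PSCA, a glycolipid-anchored surface protein, had 183, 171 and 188 against 3.2 and 2.7 CPM (5.53 ± 0.08). The rest of the 15 largest were DAPK1, a calmodulin-dependent death-associated kinase (4.48 ± 0.11), PPFIBP2, a liprin (4.46 ± 0.11), CRAT, carnitine acetyltransferase (4.45 ± 0.13), MPPED2 (4.16 ± 0.11), FRY (4.13 ± 0.15), KLHDC7A (4.08 ± 0.12), BCAS1 (4.01 ± 0.10), the imprinted noncoding RNA H19 (3.99 ± 0.10), ADIRF (3.98 ± 0.12) and LUM (3.88 ± 0.07). All exon bases of ADIRF are shared with another gene, so its value is uncertain.

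The 15 genes with the largest differences against the K149 arm included IL11. IL11, a cytokine of the interleukin 6 family, had 1.1, 0.999 and 1.3 CPM in the K149 arm and 50.8 and 49.7 CPM in the AS1949490 arm (-4.59 ± 0.10, adjusted p = 1.35e-09). INHBA, the subunit of activin A, had 2.2, 2.1 and 1.65 against 52.7 and 84 CPM (-4.51 ± 0.17), and IL1A, an alarmin cytokine, had 2.85, 2.2 and 2.75 against 58.1 and 67.6 CPM (-4.15 ± 0.11). All K149-arm libraries held a few CPM at most of these genes and both others many times more. Here too absence of overlap was a condition of the choice. PTHLH, a secreted hormone-like peptide that raises calcium, had 5.3, 5.9 and 7.0 against 114 and 125 CPM (-4.10 ± 0.11). Other genes among these 15 were FOSB (-4.33), CGB8 (-4.27), the kinase SGK1 (-4.12), TMEM200A (-3.92), AREG (-3.88), the microtubule protein MAP1B (-3.84), the matrix protein TNC (-3.83), ATF3 (-3.59), the chemokine CXCL8 (-3.55) and APCDD1L-AS1 (-3.52). CGB8 is 1 of several near-identical chorionic gonadotropin beta genes, and reads could be split among them.

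**Figure D3:**
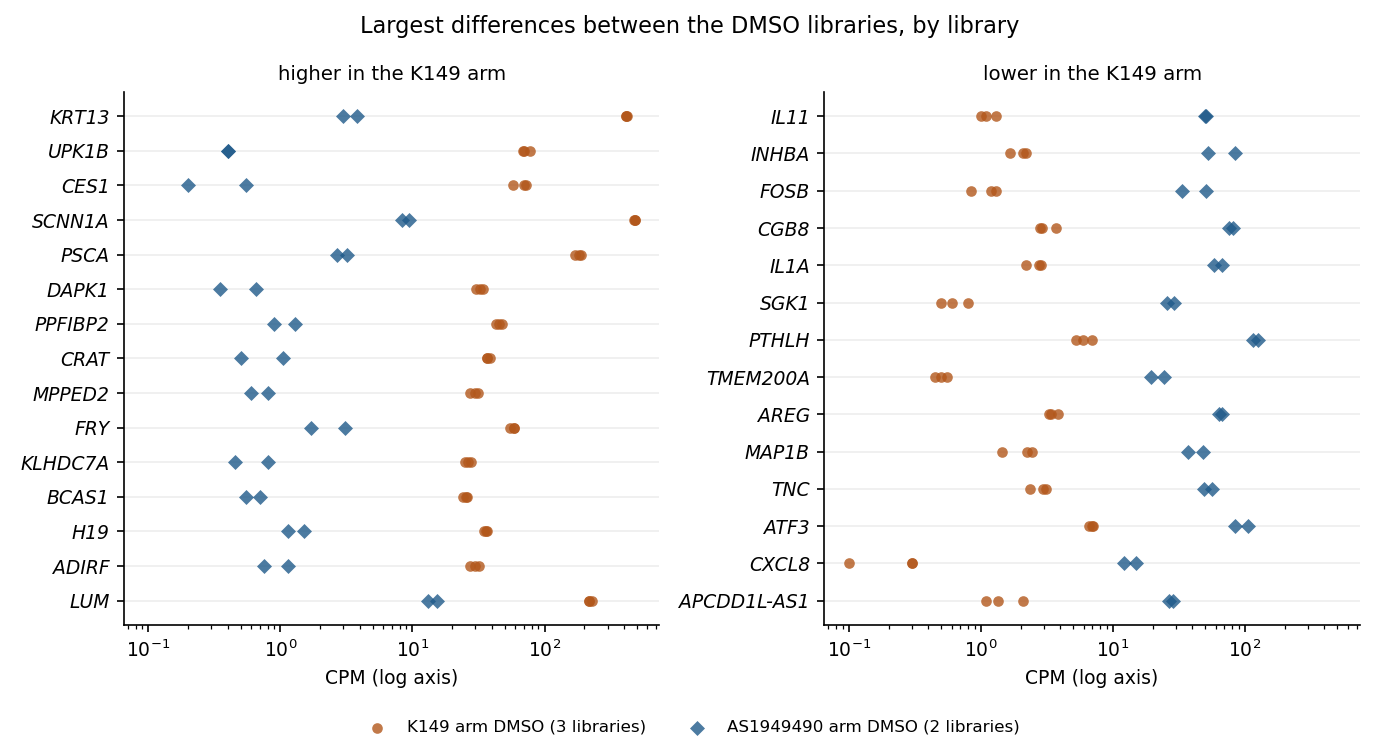
CPM in each of the 5 DMSO libraries (x axis, log scale) for the genes named in the text among the 15 largest called differences in each direction. Circles are the 3 libraries of the K149 arm and diamonds the 2 of the AS1949490 arm, and absence of overlap between the arms was a condition for a gene to be chosen.

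Promoters of several genes above were searched for TGANTCA, a loose form of the site of AP-1 dimers in which N is any base. The search covered the 200 bases before the RefSeq start, on both strands. Across the 11353 tested genes with such a window, 3.36% held the letters. IL11, IL1A and CXCL8, among the largest differences, held 1 match each, shown in capitals with the flanking bases of the gene's own strand (RefSeq, GRCh38.p14; chr19:55370541-55370571, minus strand; chr2:112784494-112784517, minus strand; chr4:73740420-73740450, plus strand).
IL11: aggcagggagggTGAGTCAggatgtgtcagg
IL1A: ggcgaagaagacTGACTCAggctt
CXCL8: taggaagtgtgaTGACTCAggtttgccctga
The letters occurred in 3 of 19 windows of the cytokine list, those of CXCL8, IL1A and IL23A, and in 0 of 20 of the immediate early list. IL11 lies outside the cytokine list. The promoters shown are examples with a match, and the share with the letters among the largest differences was not counted. A match describes the letters of the window, not a bound site.

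Several ligands of the EGF receptor family were lower in the K149 arm, and the receptor genes were called in both directions. Of 17 tested genes in this list 7 were called higher and 9 lower in the K149 arm. AREG (amphiregulin) had 3.3, 3.4 and 3.85 CPM in the K149 arm and 67.2 and 63.4 CPM in the AS1949490 arm (-3.88 ± 0.09), and HBEGF (heparin-binding EGF-like factor) had 4.0, 3.25 and 3.5 against 48.2 and 50.1 CPM (-3.46 ± 0.10). EREG (epiregulin) had 17, 19.2 and 17.9 against 54.9 and 85.6 CPM (-1.87 ± 0.15), with the 2 libraries of the AS1949490 arm apart from each other. NRG1, a ligand of ERBB3 and ERBB4, was lower (-1.37), as were TGFA (-0.94) and EPGN (-1.09). In the other direction lay EGF (0.76), BTC (0.69), NRG2 (1.57) and NRG4 (1.64, with 38.1% of its exon bases shared and so uncertain). Among receptors, EGFR had 178, 177 and 180.4 against 273 and 346 CPM and was lower (-0.78 ± 0.08), while ERBB3 was higher, with 140.5, 141 and 137 against 46.5 and 44.3 CPM (1.60 ± 0.06). ERBB2 was far above EGFR per length in both arms, at 567 and 416 CPM per kb against 14.3 and 24.7 CPM per kb, and was higher in the K149 arm (0.45 ± 0.04). ERRFI1, an inhibitor of the receptor that its signal induces, was lower (-0.92). ADAM10, a sheddase that releases several of these ligands, was higher (1.05). Its relative ADAM17 was not called (0.09, 95% interval -0.07 to 0.26), but it was called lower with the GC trend removed (-0.25, adjusted p = 0.00224) and higher without replicate 2 of the AS1949490 arm (0.22, adjusted p = 0.00103).

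Immediate early genes, which are induced within minutes of a signal, were lower in the K149 arm as a group. Of 26 tested members 23 were called lower and 1 higher, 16 of them at least 2-fold lower, and their median difference was -1.54 (-1.42 with the GC trend removed) against 0.06 for all genes. FOSB, an AP-1 subunit, had 1.2, 0.849 and 1.3 CPM in the K149 arm and 33.6 and 50.6 CPM in the AS1949490 arm (-4.33 ± 0.17), and FOSL1, the AP-1 subunit FRA1, had 26.7, 26.2 and 28.7 against 254 and 276 CPM (-3.24 ± 0.07). JUN was lower (-1.62), as was JUNB (-1.17). FOS itself overlapped between the arms, at 9.89, 11 and 7.45 against 8.74 and 8.35 CPM (0.11, 95% interval -0.20 to 0.43), and JUND was not called (-0.11, -0.28 to 0.06). So the AP-1 subunits did not differ alike. ATF3, a stress-induced factor, had 7.0, 6.6 and 7.1 against 83.8 and 105 CPM (-3.59 ± 0.10). The other members with large differences were the zinc finger factors EGR3 (-2.8), KLF4 (-2.44) and KLF6 (-1.65), CSRNP1 (-2.57), the phosphatase regulator PPP1R15A (-2.54) and the MAP kinase phosphatase DUSP1 (-1.72). IER3 (-3.23) shares 26.5% of its exon bases and is uncertain. BTG2, an antiproliferative gene, was the member in the opposite direction, with 42.7, 39.3 and 37.9 against 8.09 and 8.74 CPM (2.12 ± 0.08).

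EGR1, a factor induced through serum response factor, had 52.1, 56.4 and 41.1 CPM in the K149 arm and 76.5 and 98.8 CPM in the AS1949490 arm (-0.80 ± 0.13, adjusted p = 0.000482). Its promoter is printed because it held 2 of the CArG boxes that serum response factor binds, in capitals (RefSeq, GRCh38.p14, chr5:138465362-138465417, plus strand).
EGR1: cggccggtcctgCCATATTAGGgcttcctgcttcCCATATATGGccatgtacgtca
CArG boxes were found on either strand in 2 of 20 windows of the list, those of EGR1 and SRF, and in 0.80% of all 11353 windows. SRF, the factor itself, was lower in the K149 arm (-0.84).

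A list of feedback inhibitors and other genes of ERK signalling went the same way for the most part. Of 19 tested members 13 were called lower, 7 of them at least 2-fold, and 2 were called higher, with a median of -0.80. FOSL1, IER3 and EGR1 are in both this list and the one above, so the counts are not those of inhibitors alone. DUSP5, a nuclear ERK phosphatase, had 6.45, 6.05 and 6.05 against 46.3 and 48.9 CPM (-2.76 ± 0.08), and SPRY2, a Sprouty inhibitor, had 4.4, 4.85 and 5.55 against 19.1 and 23 CPM (-1.89 ± 0.12). DUSP6, the cytoplasmic ERK phosphatase, was lower too (-2.50), an uncertain value since 40.5% of its exon bases are shared. SPRY1 went the other way, with 13, 10.8 and 9.45 against 1.95 and 1.75 CPM (2.08 ± 0.13), as did EPHA4 (1.12), while the related receptor EPHA2 was lower (-1.28). CCND1, the cyclin D1 gene and a target of the same pathway, had 539, 542 and 552 against 512 and 579.9 CPM, a difference of 0.00 with a 95% interval of -0.13 to 0.13. Its direction followed single libraries of the AS1949490 arm, since CCND1 was called higher without replicate 2 (0.09, adjusted p = 0.0337) and lower without replicate 1 (-0.09, adjusted p = 0.0296).

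Cytokine and NF-kB genes were also mostly lower in the K149 arm. Of 22 tested members, with 8 more below the threshold, 18 were called lower in the K149 arm, 14 of them at least 2-fold, and 2 higher, with a median of -1.29. TNFAIP3, the A20 inhibitor that NF-kB induces, had 1.4, 0.999 and 0.95 against 20.1 and 22 CPM (-3.39 ± 0.12), and LIF, a cytokine of the interleukin 6 family, had 27.2, 26 and 22.9 against 245 and 286 CPM (-3.34 ± 0.09). IL1B (-2.37), the apoptosis inhibitor BIRC3 (-1.92) and IL23A (-1.86) were lower too. The subunits of the noncanonical pathway were lower, NFKB2 with 19.3, 20.04 and 19.8 against 91.1 and 86.4 CPM (-2.12 ± 0.07) and RELB with 4.95, 5.5 and 4.6 against 38.5 and 37 CPM (-2.69 ± 0.10). RELA was lower by less (-0.78), and NFKB1 was not called (-0.07, 95% interval -0.20 to 0.07). TNFAIP2, also an NF-kB target, was higher in the K149 arm, with 481, 472 and 455 against 124 and 131 CPM (1.87 ± 0.05). SOD2, the mitochondrial superoxide dismutase, was the other member called higher (0.36), a call that was lost with the GC trend removed (0.12, adjusted p = 0.085). ICAM1, an adhesion molecule, was not called (0.24, -0.05 to 0.53) and was called higher with the GC trend removed (0.36, adjusted p = 0.0321).

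Targets of YAP and TEAD were lower in the K149 arm while the YAP transcript was higher. Of 30 tested genes 19 were called lower, 12 of them at least 2-fold, and 4 higher, with a median of -0.68 (-0.64 with the GC trend removed). CTGF, a matricellular protein, had 18.1, 21.5 and 14.5 CPM in the K149 arm and 136 and 215 CPM in the AS1949490 arm (-3.19 ± 0.19), and CYR61, its relative, had 43.6, 47.4 and 43.4 against 319 and 409 CPM (-2.99 ± 0.10). ANKRD1, a nuclear ankyrin repeat protein, had 7.95, 8.99 and 7.5 against 54.5 and 64.1 CPM (-2.72 ± 0.10). In these 3 genes, as in CTGF most of all, the AS1949490 arm varied between its libraries and still lay above every K149-arm library. AXL, a receptor tyrosine kinase, had 23.2, 24 and 21.1 against 263 and 277 CPM (-3.51 ± 0.07), and F3, tissue factor, had 29.6, 31.8 and 28.7 against 264 and 321 CPM (-3.24 ± 0.09). NT5E, the ectonucleotidase CD73, was also lower (-2.47 ± 0.06), and so was AMOTL2, an angiomotin that binds YAP (-1.47 ± 0.09). YAP1 itself had 761, 739 and 742 against 383 and 527 CPM (0.73 ± 0.10, adjusted p = 0.00017). Among the TEAD factors TEAD4 was lower (-0.70), and TEAD1 was not called (0.24, 95% interval 0.01 to 0.46), though it was called higher without replicate 2 of the AS1949490 arm (0.45, adjusted p = 3.76e-06). WWTR1, which encodes the YAP relative TAZ, was called lower (-0.24), a call that was lost without replicate 2 of the AS1949490 arm (-0.13, adjusted p = 0.0717) and without replicate 2 (-0.22, adjusted p = 0.0823) or 3 (-0.22, adjusted p = 0.0838) of the K149 arm. IGFBP3, which binds insulin-like growth factors, was the large exception, with 80.8, 88 and 90.8 against 9.04 and 6.95 CPM (3.29 ± 0.10).

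The promoters of CTGF and ANKRD1 are shown for the TEAD letters GGAATG, in capitals, which occurred in 8 of 22 windows of this list and in 7.13% of all 11353 windows, on either strand (RefSeq, GRCh38.p14; chr6:131951450-131951553 and chr10:90921198-90921227, both minus strand).
CTGF: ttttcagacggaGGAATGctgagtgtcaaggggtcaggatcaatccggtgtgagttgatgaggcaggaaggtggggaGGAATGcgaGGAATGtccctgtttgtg
ANKRD1: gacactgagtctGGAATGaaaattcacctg
The other windows with the letters were those of FOXF2, IGFBP6, NUAK2, PTPN14, TGFB2 and YAP1. Of these genes NUAK2 (-1.39), PTPN14 (-0.70) and TGFB2 (-1.7, with 26.6% of its exon bases shared) were lower, IGFBP6 (0.78) and YAP1 were higher, and FOXF2 was not called (-0.05). So genes with the letters lay on both sides.

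Genes of the TGF-beta response were split. Of 31 tested members 18 were called lower, 14 of them at least 2-fold, and 10 higher, with a median of -0.53 (-0.32 with the GC trend removed). THBS1, thrombospondin 1, had 478, 512 and 498 CPM in the K149 arm and 3175 and 3743 CPM in the AS1949490 arm (-2.79 ± 0.07). TGFBI, a secreted matrix protein, had 346, 349.99 and 350.2 against 1311 and 1363 CPM (-1.93 ± 0.05), and the feedback inhibitors PMEPA1 (-1.55 ± 0.05) and SMAD7 (-1.44 ± 0.08) were lower as well. FST, follistatin, which binds activin, was lower (-1.84 ± 0.09) along with INHBA, and BMP4 (-1.22) and BMP2 (-1.23) were lower. The ID factors, which BMP signals induce, were higher in the K149 arm, ID1 with 313, 329 and 359.5 against 236 and 237 CPM (0.49 ± 0.06), ID2 by 0.92 and ID3 by 0.56. The receptor TGFBR2 was higher (0.33). TGFBR1 was not called (0.01, 95% interval -0.23 to 0.26), but it was called lower with the GC trend removed (-0.32, adjusted p = 0.00809) or without replicate 1 of the AS1949490 arm (-0.20, adjusted p = 0.0255) and higher without replicate 2 (0.23, adjusted p = 0.0143).

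Matrix and mesenchymal genes were lower in the K149 arm and several epithelial junction genes higher. Of 21 tested mesenchymal genes, with 9 more below the threshold, 17 were called lower, 10 of them at least 2-fold, and 1 higher, with a median of -0.93. FN1, fibronectin, had 199.98, 202 and 192 against 428 and 549 CPM (-1.29 ± 0.09), LOXL2, a collagen crosslinking enzyme, had 7.45, 8.45 and 7.65 against 39.97 and 47.2 CPM (-2.33 ± 0.10), and TPM1, tropomyosin 1, had 86.5, 87.1 and 86 against 302 and 318 CPM (-1.83 ± 0.05). SNAI2, a repressor of epithelial genes, was lower (-1.34 ± 0.07), VIM was low in both arms, at 5.41 and 11.2 CPM (-0.93 ± 0.15), and TWIST1 was not called (-0.08). S100A4 was the member called higher (1.3). Among 25 tested junction genes 13 were called higher and 4 lower, and the share called was 68%, against 66.8% of all genes. With the GC trend removed 13 were called higher and 7 lower, with a median of 0.16 in place of 0.26. CDH1, E-cadherin, had 849, 865 and 873 against 469 and 525 CPM (0.80 ± 0.06), OCLN, occludin, was higher (1.32 ± 0.07), and so was the epithelial splicing factor ESRP1 (1.23 ± 0.06). DSG3 (-0.97) and DSP, desmoplakin (-0.25), were lower. EPCAM, an epithelial adhesion protein, was not called (-0.08, 95% interval -0.19 to 0.03) and was called lower with the GC trend removed (-0.14, adjusted p = 0.0257) and without replicate 2 of the AS1949490 arm (-0.11, adjusted p = 0.0186).

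In the plasminogen and matrix protease list 14 of 19 tested genes were called lower, 9 of them at least 2-fold, and 4 higher. The urokinase receptor PLAUR had 21.2, 21 and 23.3 against 157 and 145 CPM (-2.73 ± 0.07), and SERPINB2, an intracellular inhibitor of urokinase, had 9.94, 9.44 and 9.29 against 91.3 and 88.9 CPM (-3.11 ± 0.07). Urokinase itself, PLAU, was lower as well (-2.34), with 31.1% of its exon bases shared and so uncertain. The gelatinase MMP2 was lower (-1.13 ± 0.05). PLAT, the tissue plasminogen activator, went the other way, with 36.7, 38.2 and 27.3 against 7.94 and 8.89 CPM (1.88 ± 0.13), and so did MMP28, with 15.3, 13.6 and 16.8 against 0.799 and 0.9 CPM (3.13 ± 0.12). So both activators of plasminogen were called, in opposite directions. AP-1 letters, searched as above, occurred in 3 of 10 windows of this list, and those of PLAUR and SERPINB2 are shown in capitals (RefSeq, GRCh38.p14; chr19:43670337-43670367, minus strand; chr18:63887591-63887621, plus strand).
PLAUR: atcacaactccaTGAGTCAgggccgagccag
SERPINB2: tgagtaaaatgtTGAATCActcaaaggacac
The third window was that of MMP10.

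Basal and differentiated squamous genes differed in both directions. Of 25 tested basal genes 8 were called higher and 12 lower, and their median was -0.23. The genes of the basement membrane attachment were lower in the K149 arm. LAMA3 and LAMB3 encode chains of the laminin in epithelial basement membranes, and LAMA3 had 101, 92.2 and 101 CPM in the K149 arm and 549 and 549.6 CPM in the AS1949490 arm (-2.48 ± 0.06). LAMB3 had 111, 109 and 115 against 552 and 507 CPM (-2.23 ± 0.06). Both were thus far lower in each K149-arm library than in either other library, and COL7A1, the anchoring fibril collagen (-2.16 ± 0.08), and COL17A1, a hemidesmosome collagen (-1.90 ± 0.09), were lower in the K149 arm too. Their integrin receptor genes differed by less, with ITGB4 called lower (-0.24), a call that was lost with the GC trend removed (-0.03, adjusted p = 0.599), and ITGA6 not called (-0.12, 95% interval -0.26 to 0.03), though it was called lower with that trend removed (-0.32, adjusted p = 0.000574) and without replicate 1 of the AS1949490 arm (-0.22, adjusted p = 0.000301). TP63 was higher in the K149 arm (0.58 ± 0.12), and so was TRIM29 (1.3 ± 0.07), while KRT17 was lower (-1.3 ± 0.07).

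Of 28 tested squamous differentiation genes, with 30 more below the threshold, 17 were called higher, 11 of them at least 2-fold. Another 7 were called lower, 5 of them at least 2-fold. The median was 0.70, and members ranged from -3.11 to 6.57. KRT4, the partner of KRT13 in esophageal epithelium, had 30.7, 30.9 and 29.4 CPM in the K149 arm and 3.25 and 2.3 CPM in the AS1949490 arm (3.07 ± 0.11). The factors GRHL3, with 35.4, 38.7 and 40.2 against 8.14 and 7.0 CPM (2.19 ± 0.09), GRHL1 (1.43 ± 0.08) and ZNF750 (1.56 ± 0.11) were higher, and all 3 are known to drive epidermal differentiation. The calcium-binding protein S100P had 321, 318 and 333 against 87.3 and 73.5 CPM (2.0 ± 0.07), and SLPI, a secreted protease inhibitor, was higher (0.99 ± 0.11). The cornified envelope genes IVL, SPRR1A, SPRR1B and SPRR3 were at 0 in all 5 libraries, so the difference was in part of the program only. NOTCH3, a receptor, was higher (1.89 ± 0.07), while its ligand JAG1 had 57.5, 53.1 and 54.7 against 193 and 246 CPM and was lower (-1.96 ± 0.09).

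**Figure D4:**
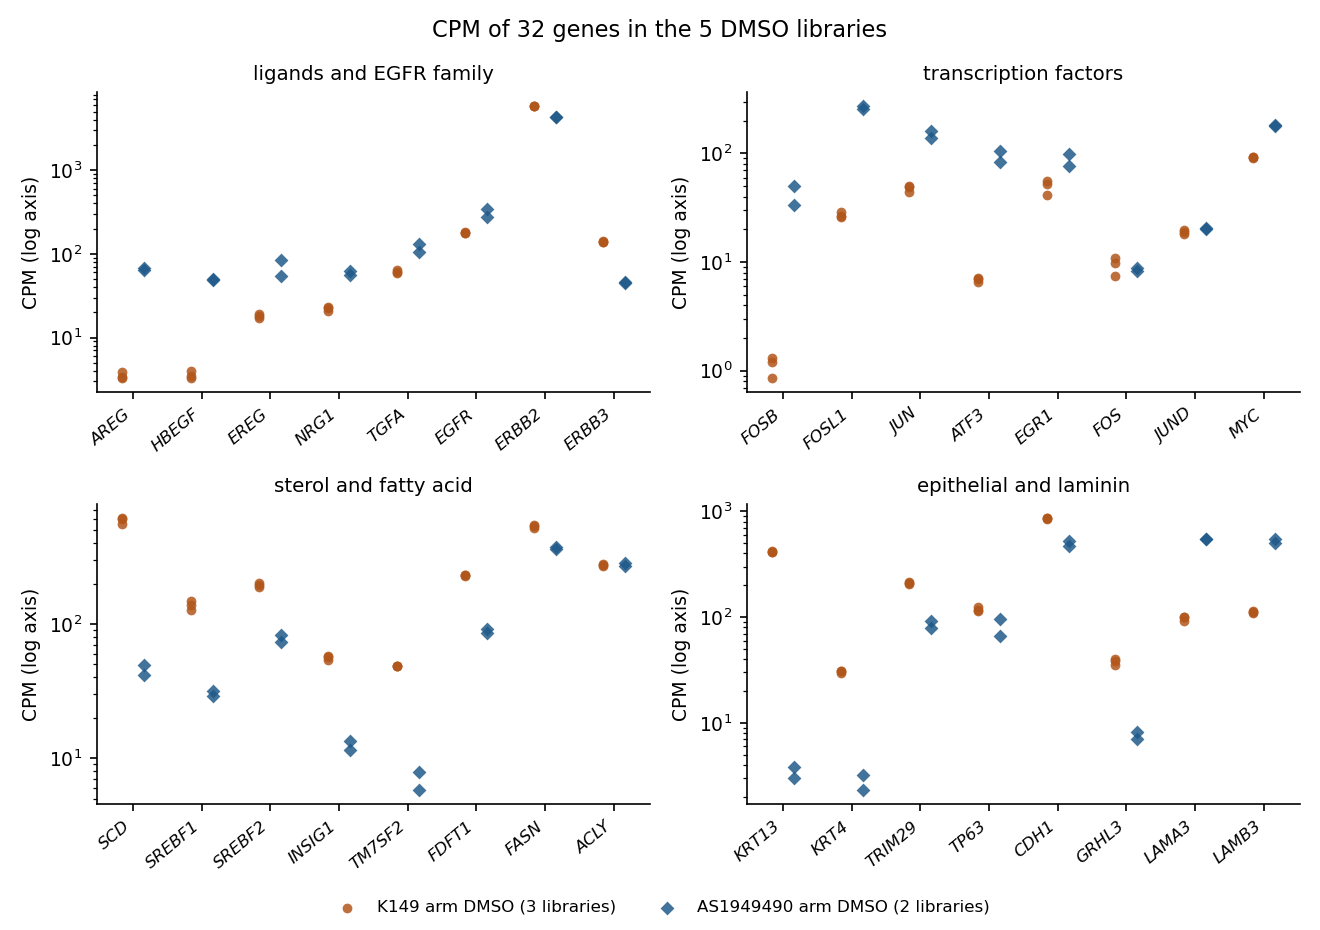
CPM (y axis, log scale) of 32 genes named in the text in each DMSO library, in 4 panels by role, with circles for the K149 arm and diamonds for the AS1949490 arm. The EGF family ligands drawn, most AP-1 factors and the laminin chains lie higher in the AS1949490 arm. Among ligands not drawn, EPGN was lower in the K149 arm and EGF, BTC, NRG2 and NRG4 were higher. SREBP and sterol genes and the keratins 4 and 13 lie higher in the K149 arm, and FOS, JUND and ACLY close together.

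Genes of sterol and fatty acid synthesis were higher in the K149 arm. They are known to be switched on together by the SREBP factors when sterols are short. Of 25 cholesterol genes, all tested, 22 were called higher and 2 lower, with a median of 0.87 (0.74 with the GC trend removed). Of 11 tested fatty acid genes 9 were called higher and 2, ACLY and ELOVL5, were not called, with a median of 1.01. SCD, the desaturase that makes oleate, had 603, 619 and 555 CPM in the K149 arm and 41.4 and 49.8 CPM in the AS1949490 arm (3.67 ± 0.08). SREBF1 had 138, 149.4 and 128 against 28.9 and 31.5 CPM (2.16 ± 0.08), and SREBF2 had 196, 201.3 and 187 against 73.8 and 83.2 CPM (1.3 ± 0.07), so both SREBP genes were higher. Among the regulators INSIG1, which holds SREBP in the endoplasmic reticulum, had 54.3, 56.8 and 57.5 against 11.4 and 13.5 CPM (2.09 ± 0.08). The sterol enzyme genes TM7SF2 (2.68 ± 0.11) and FDFT1, squalene synthase (1.36 ± 0.05), were higher. ACLY, which supplies acetyl-CoA, did not differ beyond a 95% interval of -0.12 to 0.11, and FASN was higher by a smaller step (0.52 ± 0.05). ELOVL5, a fatty acid elongase (0.03, -0.11 to 0.16), was called lower with the GC trend removed (-0.21, adjusted p = 0.00464) and higher without replicate 2 of the AS1949490 arm (0.11, adjusted p = 0.0226). The SREBP letters TCACNCCAC were found on either strand in 1 of 18 windows of the sterol list and 0 of 10 of the fatty acid list, against 0.71% of all windows, so they are not shown.

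Interferon-stimulated genes were higher in part. Of 30 tested members, with 6 below the threshold, 20 were called higher, 10 of them at least 2-fold, and 4 lower, with a median of 0.53. OAS1, which senses double-stranded RNA, had 58.1, 52.8 and 58.3 CPM in the K149 arm and 5.84 and 4.35 CPM in the AS1949490 arm (3.24 ± 0.11). IFIT1, an inhibitor of foreign mRNA, had 14.5, 15 and 14 against 1.55 and 1.5 CPM (2.62 ± 0.10), and IFIT3, its partner, had 16.9, 17.4 and 16.5 against 4.75 and 3.8 CPM (1.77 ± 0.10). ISG15, a ubiquitin-like modifier, overlapped between the arms, at 8.1, 8.89 and 8.75 against 10.04 and 8.45 CPM (-0.09, 95% interval -0.33 to 0.14), and IFI6 was not called (-0.16). The interferon regulatory factor gene IRF7 was lower (-0.54). IRF1 was called lower (-0.25), a call that was lost without replicate 1 (-0.24, adjusted p = 0.0537) or 3 (-0.23, adjusted p = 0.056) of the K149 arm. The 3 promoters below show that the interferon-stimulated response element, read as GAAA, any 2 bases and GAAA again or as its reverse complement, in capitals, stood both in genes called higher and in 1 that was not called (RefSeq, GRCh38.p14; chr10:89392495-89392541, chr10:89327829-89327896 and chr1:1013372-1013411, all plus strand).
IFIT1: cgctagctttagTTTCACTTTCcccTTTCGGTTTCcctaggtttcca
IFIT3: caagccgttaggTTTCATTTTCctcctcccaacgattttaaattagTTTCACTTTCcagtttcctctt
ISG15: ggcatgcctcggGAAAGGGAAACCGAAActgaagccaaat
It occurred on either strand in 13 of 23 windows of the list and in 1.81% of all 11353 windows. Of 20 antigen presentation genes of class I 10 were called higher and 4 lower. The share called was 70%, close to the 66.8% of all genes, and the median was 0.22 (0.15 with the GC trend removed). The peptide-trimming ERAP2 was higher (1.07 ± 0.09), as was HLA-C (0.50). B2M, the light chain of all class I molecules, was higher (0.37), a call that was lost with the GC trend removed (0.09, adjusted p = 0.305). The peptide transporter gene TAP1 was called lower (-0.29), a call that was lost with the GC trend removed (-0.16, adjusted p = 0.0853) and without replicate 1 of the AS1949490 arm (-0.17, adjusted p = 0.0502). Reads of the HLA genes could be split among their near-identical relatives.

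Genes of ribosome production were lower in the K149 arm by small steps. Of 38 tested MYC and ribosome biogenesis genes 34 were called lower and 1 higher, though only 4 were lower at least 2-fold, and the median was -0.41 (-0.52 with the GC trend removed). MYC had 92.1, 90.5 and 93.4 CPM in the K149 arm and 182 and 178 CPM in the AS1949490 arm (-0.96 ± 0.05). ODC1, the first enzyme of polyamine synthesis and a MYC target, had 172, 175 and 195 against 696 and 585 CPM (-1.82 ± 0.08). RRP9 (-1.15 ± 0.07), RRP12 (-1.09 ± 0.06) and BOP1 (-0.95 ± 0.06), which process ribosomal RNA, were lower, and the abundant nucleolar genes NCL (-0.24) and NPM1 (-0.26) were lower by less. Host RNAs of small nucleolar RNAs were lower in 14 of 15 cases, with a median of -0.60, among them SNHG1, with 96.8, 91.4 and 82.9 against 176 and 157 CPM (-0.88 ± 0.08), and SNHG17 (-1.11 ± 0.08). Of 78 cytosolic ribosomal protein genes 32 were called lower and 2 higher, and for 74 the 95% interval lay within 0.5. Their count rested on single libraries, with 66 called lower without replicate 2 of the AS1949490 arm and 21 without replicate 1 of the K149 arm. As a share of CPM these genes took 2.97%, 3.01% and 3.05% in the K149 arm and 3.55% and 3.03% in the AS1949490 arm (exact two-sided permutation p = 0.4, where 0.2 is the smallest this test gives).

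Stress programs were mixed. In the integrated stress response, which the factor ATF4 directs, 22 of 33 tested genes were called lower and 6 higher, with a median of -0.54. STC2, a secreted glycoprotein, had 32.3, 32.4 and 30.7 CPM in the K149 arm and 157 and 156 CPM in the AS1949490 arm (-2.26 ± 0.06), CHAC1, which breaks down glutathione, had 3.55, 3.5 and 3.5 against 14.2 and 13.9 CPM (-1.74 ± 0.10), and the amino acid transporter SLC7A5 had 481, 498 and 535 against 1059 and 1147 CPM (-1.13 ± 0.06). ATF4 was lower (-0.47 ± 0.06). The serine synthesis genes PHGDH (0.11, 95% interval -0.02 to 0.24) and PSAT1 (0.02, -0.12 to 0.15) were not called. With the GC trend removed PHGDH was called higher (0.16, adjusted p = 0.0245) and PSAT1 lower (-0.20, adjusted p = 0.00886), and PHGDH was also called higher without replicate 1 of the AS1949490 arm (0.18, adjusted p = 0.00255). ATF3 and PPP1R15A belong to this list and to the immediate early list. Targets of NRF2, the oxidant response factor, split into 17 called higher and 12 lower of 32. The aldo-keto reductases AKR1B10, with 73.1, 60.9 and 85.7 against 13.9 and 9.89 CPM (2.53 ± 0.15), and AKR1C3 (1.40 ± 0.10) and the aldehyde dehydrogenase ALDH3A1 (1.49 ± 0.10) were higher. TXNRD1, thioredoxin reductase, had 604, 576 and 646 against 1165 and 1208 CPM and was lower (-0.96 ± 0.06), with HMOX1, heme oxygenase (-1.19 ± 0.14), and OSGIN1 (-1.88 ± 0.10). Near-identical relatives of the AKR1C genes could share reads.

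In a pair of cell cycle lists TOP2A was the only gene called with a difference of at least 2-fold. Of 40 tested replication genes 9 were called higher and 20 lower, with a median of -0.17. Of 44 tested mitotic genes 22 were called higher and 7 lower, and the median was 0.14, or 0.04 with the GC trend removed. TOP2A, topoisomerase II, had 519, 544 and 521 CPM in the K149 arm and 221 and 305 CPM in the AS1949490 arm (1.02 ± 0.11). The proliferation marker MKI67 overlapped between the arms, at 316, 331 and 343 against 282 and 318 CPM (0.14, 95% interval 0.00 to 0.28), and it was called higher without replicate 2 of the AS1949490 arm (0.23, adjusted p = 0.00134). CDK1, the mitotic kinase, was not called (0.06, -0.07 to 0.19) and was called lower with the GC trend removed (-0.31, adjusted p = 0.00362). POLE, a replicative polymerase (-0.89 ± 0.06), and CDT1, a licensing factor (-0.84 ± 0.06), were lower, and the helicase subunit MCM6 was higher (0.72 ± 0.06). CDKN1A, the cell cycle inhibitor p21, was lower (-0.58 ± 0.06).

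In the phosphoinositide pathway that SHIP2 belongs to, 24 of 40 tested genes were called higher and 11 lower, with a median of 0.38 that was 0.10 with the GC trend removed. With that trend removed 15 genes were called higher. The kinase PIK3C2B had 98.3, 95 and 92.8 CPM in the K149 arm and 21.9 and 26.6 CPM in the AS1949490 arm (1.94 ± 0.08), and the regulatory subunit gene PIK3R1 had 46.3, 48.4 and 45.7 against 14.4 and 17.3 CPM (1.51 ± 0.09). INPP4A, a phosphatase acting downstream of SHIP2, was higher (1.28 ± 0.06), and PIK3CD, a catalytic subunit, was lower (-1.14 ± 0.10). INPP5D, which encodes the related SHIP1, was at 0.183 and 0.1 CPM and was not tested. AKT1 was called lower (-0.19), a call that was lost with the GC trend removed (0.00, adjusted p = 0.999) and without replicate 2 of the K149 arm (-0.18, adjusted p = 0.0533). MTOR was not called (-0.05, -0.18 to 0.07) and was called lower without replicate 1 of the AS1949490 arm (-0.11, adjusted p = 0.0379). The adaptor genes of the insulin receptor were called in opposite directions, IRS1 higher (81.7, 81.6 and 84 against 35.1 and 44.1 CPM, 1.05 ± 0.09) and IRS2 lower (7.3, 8.04 and 9.6 against 24.6 and 31.2 CPM, -1.63 ± 0.13). FOXO1, a factor that AKT keeps out of the nucleus, had 44.1, 42.5 and 46.7 against 9.54 and 11.7 CPM (1.97 ± 0.09).

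**Figure D5:**
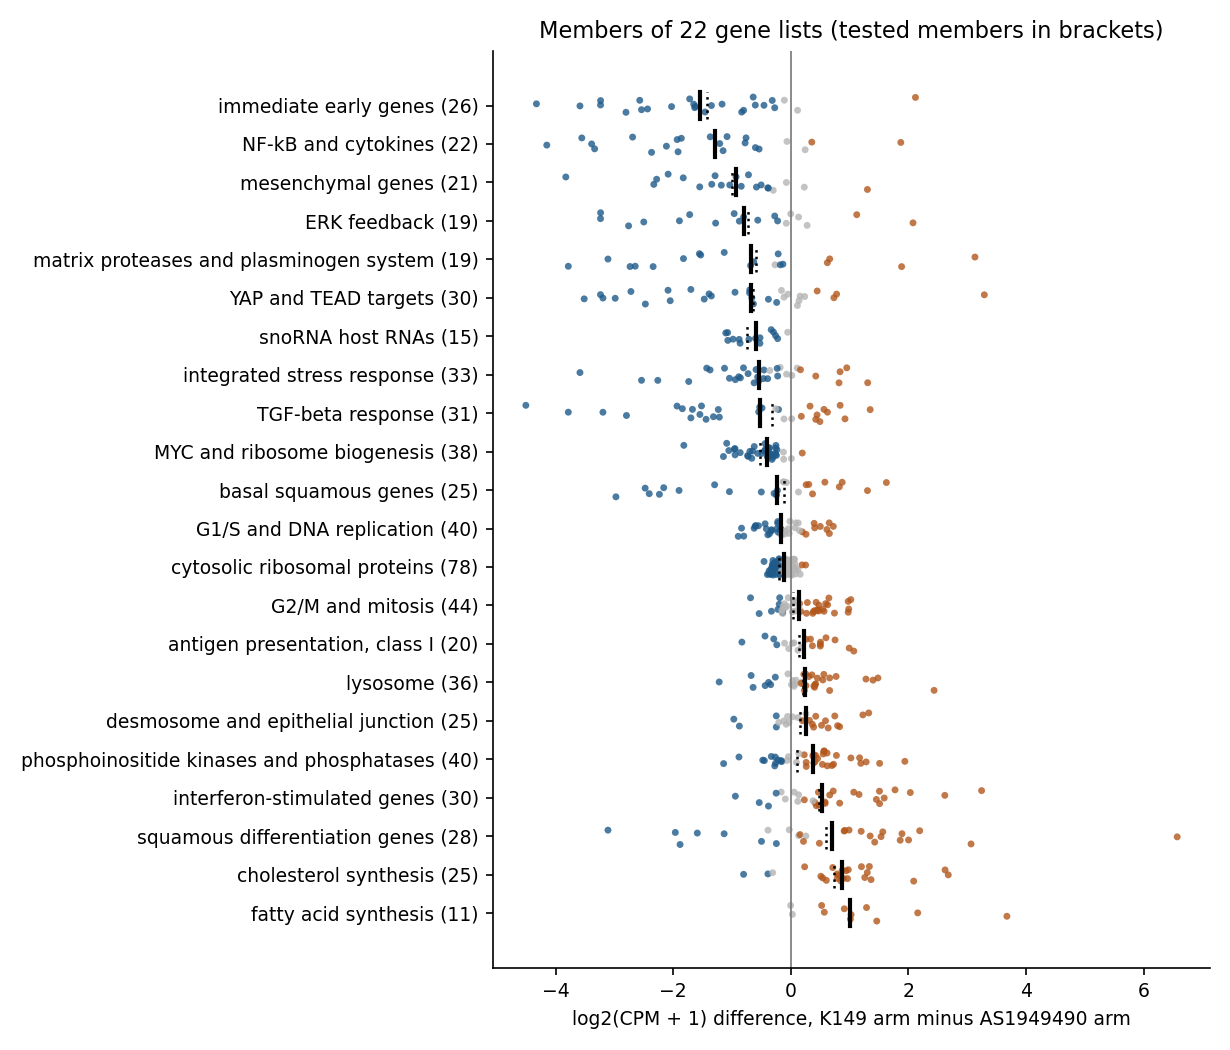
Difference of each tested member (x axis, log2 scale) in 22 of the 44 gene lists compared, ordered by median. Members called higher in the K149 arm are in orange, called lower in blue and not called in grey. Lists not drawn include heat shock (median 0.02), autophagy (0.09) and EGFR family receptors and ligands (-0.72). Thick bars are list medians and dotted bars the medians with the GC trend removed, which lie at -1.54 and -1.42 for the immediate early genes and at 0.87 and 0.74 for cholesterol synthesis.

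Of the 15 genes of highest CPM per kb of exon, 11 were not called, 3 were called higher and FTL lower. With the GC trend removed 2 were called higher, 7 lower and 6 were not called. Of the same 15, 13 are encoded by the mitochondrial genome, and the other 2 were FTL, ferritin light chain, and AC006064.4, whose exons all overlap another gene. FTL had 1192, 1136 and 1239 CPM in the K149 arm and 1830.3 and 1598 CPM in the AS1949490 arm (-0.52 ± 0.06). MT-CO3, a subunit of cytochrome oxidase, overlapped between the arms, at 2180.3, 2044 and 1909.7 against 1996 and 1996 CPM (0.03, 95% interval -0.10 to 0.16). MT-CO1, another subunit, was not called (-0.13, -0.27 to 0.02) and was called lower with the GC trend removed (-0.22, adjusted p = 0.0153) and without replicate 1 of the K149 arm (-0.19, adjusted p = 0.0351). Of the 13 protein-coding mitochondrial genes 3 were called higher and 10 were not called, but with the GC trend removed 1 was called higher and 6 lower (median -0.14 against -0.03). MT-ND6, on the strand opposite to most mitochondrial genes, was 1 of the 3 (0.52 ± 0.06), and reads of the 2 strands could be mixed where counting did not use strand. Among all genes, 4742 (27.5%) were not called and had an interval within 0.5 in both directions. The keratin KRT16, a marker of stressed epithelium, was among them (0.00, -0.22 to 0.22), as were NFKB1, JUND and ACLY above. With edgeR and without replicate 1 of the AS1949490 arm, NFKB1 was at -0.16 and ACLY at -0.10. Lactate dehydrogenase LDHA (-0.06, -0.17 to 0.05) and KRT7 (-0.04, -0.15 to 0.06) also were not called and had such an interval. With the GC trend removed, though, LDHA was called lower (-0.23, adjusted p = 0.00344) and KRT7 higher (0.16, adjusted p = 0.0264). Without replicate 2 of the AS1949490 arm LDHA was at -0.09.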

How the data were processed

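RNA from KYSE-410 cells was purified on columns with DNase, checked on a Bioanalyzer and turned into libraries (Ovation Solo RNA-Seq System), as the labels' protocols state. The authors deposited a table of CPM per gene. The submitters' processing notes name STAR 2.5.3a, HTSeq and the hg38 build, and annotation, strand setting and filters were not given in the sources used here. Of 58302 gene IDs, 58039 matched GENCODE 29, which supplied positions, gene types, exon lengths and the GC content of each gene's longest transcript. Symbols came with the deposited values. The table holds no counts, so log2(CPM + 1) of the 5 DMSO libraries was fitted with limma 3.58.1 (R 4.3.3, eBayes with a trend in the mean) for genes with a mean of at least 1 CPM in either arm, with Benjamini-Hochberg adjustment over all 17263 genes and a call at adjusted p under 0.05. Values lay on steps of about 0.05 CPM, which look like reads scaled to a common total and rounded up. Empty or doubly filled steps gave each library's scale, and so the depths and the reads for edgeR 4.0.16 and DESeq2 1.42.0, which were run as alternatives. The GC trend of each library was removed by lowess (span 0.3). The fit was also run on simulated data with few changed genes, no GC trend and the same spread in both arms. The real data differ in all of these, so that run does not show how reliable the calls here are.

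The title of K149-arm replicate 3 names no arm, so its group came from its library name, and in the AS1949490 arm titles and library names are numbered differently. P-values measure the spread between these libraries, which may be technical. Promoter sequences and windows of 200 bases are from RefSeq GRCh38.p14.

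The groups, gene lists and members were chosen with earlier results of these data known. Named genes are INPPL1, the 15 largest called differences in each direction (mean of at least 5 CPM in either arm, no overlap, no clone names), the called members of each list with the 5 smallest p-values or a known role, the 15 genes of highest CPM per kb, and lineage and family genes. Results for some genes are not reported here. A gene is uncertain where 25% or more of its exon bases lie in another gene.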

Additional observations from a re-analysis of the deposited data

How the results depend on the processing

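The counts of genes called higher or lower kept within 1.5 times the reported ones under each of 19 alternatives: TMM and median-ratio scaling, other pseudocounts and filters, all 10 libraries in the fit, replicate blocks, edgeR, DESeq2, removal of the GC trend and each library left out. The split of calls moved with the method. The edgeR test on the inferred reads called 11517 genes with 49.9% higher, DESeq2 10162, and the fit with the GC trend removed 11038 with 49.3% higher, of which 9257 were reported calls of the same direction. Differences of at least 2-fold depended on the scale. At a pseudocount of 5 they numbered 589 higher and 405 lower, and lower ones numbered 1359 with edgeR, 1335 with DESeq2 and 1387 with edgeR on 4 libraries. Ribosomal protein genes called lower numbered 21 with no filter on low values and 21 to 66 with single libraries left out. Phosphoinositide genes called higher were 15 with the GC trend removed, with or without a replicate block. Of 22 nuclear-retained RNAs 11 were called higher, against 7 with DESeq2 and 5 with the GC trend removed, with or without the block. With a library of the AS1949490 arm left out, CCND1 ranged from -0.092 to 0.0884. TGFBR1 ranged from -0.196 to 0.2256 in the same way, and with edgeR on 4 libraries it was at -0.2577 and ELOVL5 at -0.1146. With the GC trend removed, and then with a replicate block added, ADAM17 was at -0.2471 and -0.235, CDK1 at -0.3102 and -0.3398, ELOVL5 at -0.2118 and -0.2168, PSAT1 at -0.2042 and -0.2426 and TGFBR1 at -0.3152 and -0.3208. With that trend removed and no block, AKT1 was at 0.0001 and KRT7 at 0.1556. The cause was not tested. Of the called genes named in the text, 191 kept their call and direction under every alternative and 13 did not. Of these, 7 lost it with a library left out, 5 under a block and 6 with the GC trend removed. The removal of the GC trend and the edgeR fit on 4 libraries were chosen after seeing the data, the latter without replicate 1 of the AS1949490 arm because its inferred depth is uncertain.

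The arms share replicate numbers 1 and 2 only, and deviations of same-numbered libraries correlated at -0.069 and -0.045, so the numbers were not taken as pairing. A replicate block by titles called 10358 genes and one by library names 10200. Leaving out a library of the AS1949490 arm leaves 1 there, which is then assumed to vary like the other arm. Depth was inferred, and 5 libraries of 1 line limit the precision. Genes at a few CPM were measured by few reads, and the library series cannot be told apart from the groups.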

Other observations

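Gene families that were noticed after their values were seen, and so carry no test as families, are given here as values. Of 7 tested uroplakin genes, which encode the surface plaque of the urothelium, 7 were called higher in the K149 arm. UPK2 had 83.5, 84.1 and 78.7 CPM there and 9.09 and 8.1 CPM in the AS1949490 arm (3.12 ± 0.08, limma adjusted p = 1.54e-09), and UPK1A had 5.0, 5.65 and 4.4 against 0.15 and 0.05 CPM (2.45 ± 0.13). GATA3, a factor of urothelium and breast epithelium, had 259, 257 and 255 against 46 and 46.2 CPM (2.45 ± 0.05). The epithelial factors ELF3 (192, 192 and 193 against 39.8 and 39 CPM, 2.26 ± 0.05) and ELF5 (31.9, 30.4 and 34.4 against 1.4 and 1.9 CPM, 3.65 ± 0.11) and the mucin MUC4 (265, 259 and 241 against 24.4 and 32.4 CPM, 3.13 ± 0.10) were higher too. GATA6, known from endoderm, was lower in the K149 arm (16, 16.3 and 14.6 against 34.8 and 42.7 CPM, -1.25 ± 0.10). All 6 tested chorionic gonadotropin beta genes were lower, but they are near-identical copies and their values are not independent.

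Of 120 tested genes annotated as snoRNAs 86.7% were called lower in the K149 arm, with a median of -0.68, or -0.78 with the GC trend removed. The share of CPM of the genes of that type was 0.0295%, 0.0284% and 0.0252% in the K149 arm and 0.0526% and 0.0490% in the AS1949490 arm (exact two-sided permutation p = 0.2, the smallest this test gives). Whether strand was used in counting is not given in the sources used here, and most of these short genes lie within introns of other genes.

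Of 9 tested genes of the aryl hydrocarbon receptor list, which holds the receptor, its partner and its targets, 4 were called higher and 4 lower in the K149 arm, and the median was 0.03, or -0.03 with edgeR. AHR, the receptor, had 229, 224 and 226 CPM in the K149 arm and 44.2 and 70.3 CPM in the AS1949490 arm (2.0 ± 0.15, uncertain since 32.3% of its exon bases are shared). Among its targets, CYP1A1 (13, 9.89 and 12.1 against 58.8 and 39.4 CPM, -1.96 ± 0.16) and TIPARP (45, 46.1 and 44.9 against 98.3 and 102 CPM, -1.13 ± 0.06) were lower in the K149 arm, as were CYP1B1 (-1.02) and NQO1 (-0.26, a call lost without replicate 1 or 2 of the K149 arm, with adjusted p = 0.0516 and 0.0718), while ALDH3A1 (1.49) and UGT1A6 (0.79, uncertain since 64.4% of its exon bases are shared) were higher.

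Among windows of 5 Mb with at least 20 tested genes, chosen after all windows were seen, the one from 85000001 to 90000000 on chromosome 10 (GRCh38) had 39 genes, 32 called higher and 2 lower, with a median of 0.63 (0.51 with the GC trend removed). The one from 20000001 to 25000000 on chromosome 8 had 41 genes, 6 called higher and 27 lower, with a median of -0.52 (-0.42). Copy number was not analysed here, and what moves these windows was not tested.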
